A study of Mus musculus with 9 samples.

Results

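Bach2 encodes a transcriptional repressor of B and T lymphocytes, and its locus was examined here through every accessible region assigned to it. The set consisted of all peaks of the deposited table that overlap the RefSeq body of Bach2 (gene ID 12014, chromosome 4, 32238413 to 32586109, build mm10), plus the peaks outside any protein-coding gene that have Bach2 as the nearest body within 100 kb. It held 58 of 61540 peaks, of which 45 overlapped the body and 13 lay outside it. The rule is positional, but the gene was picked on measured values. Bach2 had been chosen from peaks already seen to differ between the KO and P915H samples, and its leading peak in KO against WT was also known. Values from those contrasts are therefore given as a description. The 58 peaks share 1 gene and the same 9 samples and are not replicates of a condition.

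The cells were age-associated B cells, obtained by flow sorting of spleens. The mice were MRL/lpr, 20 weeks old, and carry the lpr mutation of Fas and develop a disease resembling lupus. All mice were bone marrow chimeras made with a mixture of 3 Tlr9 genotypes, so the cells of each genotype had matured beside the other two. The groups were Tlr9-/- (KO), homozygous for the P915H form, which the series title calls non-signaling (P915H), and intact Tlr9 (WT), with 3 samples each. The labels state neither which samples shared a host nor if each came from its own animal, so errors and p-values reflect only how these samples scatter, and that scatter may be technical. ATAC-seq reads open chromatin as sites where a transposase inserts sequencing adapters. Values are log2 accessibility, and 1 unit is a doubling. They are read here as on the CPM scale because the antilogs of each sample add up to near the CPM total. That scale brings the reads in peaks of each sample to a common total. Depth per sample is unknown.

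Bach2 belongs to the CNC family of basic leucine zipper factors, pairs with small Maf proteins and binds Maf recognition elements, whose core resembles the AP-1 site. In resting B cells it holds down Prdm1, the gene of the plasma cell regulator Blimp-1, and it is needed for class switching and the germinal centre reaction. Its level falls as B cells become plasma cells, and it also restrains effector programmes in T cells. ATAC-seq does not measure the transcript or the protein. In sorted bulk samples, fewer cells with an open site and less opening per cell cannot be told apart.

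RefSeq (GRCm38.p6) gives Bach2 a start on the forward strand at 32417435, which is 179.0 kb inside the gene body, while the 5′ end of the body comes from longer transcript models. The sequence around this internal start, from 250 bases before to 50 after it (chr4:32417185-32417484, forward strand), is shown because no peak covers it although accessible sites flank it on both sides. Capitals mark the ETS motif.

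Bach2 promoter window: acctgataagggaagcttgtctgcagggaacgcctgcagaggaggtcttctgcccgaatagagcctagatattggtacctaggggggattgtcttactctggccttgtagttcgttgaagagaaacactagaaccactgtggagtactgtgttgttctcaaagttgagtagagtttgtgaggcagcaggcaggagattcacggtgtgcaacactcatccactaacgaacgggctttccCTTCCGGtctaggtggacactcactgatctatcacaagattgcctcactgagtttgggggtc

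The nearest Bach2 peak ended 3388 bp before this window, and the next began 4174 bp after it. Of 32851 RefSeq promoter windows of this length, 35.7% overlapped a peak of the table. The Bach2 window held 7 CpG dinucleotides, which equals the median of all windows, and 50.3% G or C bases against a median of 52.7%. Of 12 motifs searched on both strands, the ETS motif CCGGAAG alone matched, on the reverse strand at position -12 from the start, and 8.86% of all windows hold it. The AP-1 and BACH core TGANTCA is in 7.81% of windows, the Maf half-site TGCTGA in 19.5%, the cAMP response element TGACGTCA in 1.79%, the E-box CAGCTG in 16.3%, the Runx motif TGTGGT in 16.8% and the forkhead motif TGTTTAC in 3.65%. The T-box motif AGGTGTGA is in 1.28%, the CTCF core CCACNAGG in 4.99%, the GC box GGGCGG in 35.7%, an NF-kB motif in 1.63% and an IRF motif in 3.44%. The core TGANTCA overlaps in part with the Maf half-site. A match is a description, and the absence of these letters from the window says nothing about the factors. Peak sequences were not used here.

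The 58 peaks had a median width of 219 bp, against 215 bp for all peaks, and a median level of 3.24, against 3.03. Levels averaged over the 9 samples ran from 1.35 to 5.83. There were 11 peaks upstream of the body, 34 in the body before the internal start, 11 in the body after it and 2 downstream. Exons and introns are not in the gene table used here, so positions within the body are given as the distance of the peak centre from its 5′ end. Within the body, 2 peaks at 326.3 and 326.7 kb also overlap Bach2os, an antisense noncoding RNA gene. Upstream, 3 peaks at distances of 58.4, 67.5 and 75.4 kb lie in the noncoding gene Gm42266. With all RefSeq genes counted, all 11 upstream peaks lie in or nearest to a gene other than Bach2. Among them, the peak 20.7 kb before the body is nearest to Gm11929 and the one 6.48 kb before it to n-TGccc3. A peak assigned by position may regulate another gene.

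At the 5′ end of the body, where the longer transcripts begin, 3 peaks lay within 1 kb of the annotated end. The first (32238300 to 32238509) had log2 values of 3.50, 3.16 and 3.44 in KO, 3.41, 3.53 and 3.57 in WT and 3.23, 3.45 and 3.14 in P915H. The second (32238562 to 32238747) had 4.44, 4.46 and 4.35 in KO, 4.24, 4.32 and 4.31 in WT and 4.33, 4.22 and 4.34 in P915H. The last of them (32239297 to 32239792) had 3.74, 4.01 and 4.02 in KO, 3.85, 3.75 and 3.16 in WT and 3.58, 3.40 and 3.98 in P915H. The genotypes overlapped at the outer sites, and at the one between them the KO samples lay just above the rest. The differences between KO and P915H at these sites were 0.09 (SE 0.16), 0.12 (SE 0.11) and 0.27 (SE 0.22) on the log2 scale.

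The strongest Bach2 peak lay 120.4 kb into the body (32358682 to 32358889). Its values were 5.88, 5.81 and 5.79 in KO, 5.83, 5.76 and 5.96 in WT and 5.78, 5.93 and 5.74 in P915H. The 9 values were mixed across genotypes, and KO differed from P915H by 0.01 (SE 0.10). The next strongest, at 19.9 kb (32258183 to 32258405), had 5.02, 4.73 and 4.93 in KO, 4.94, 5.33 and 4.93 in WT and 5.29, 5.20 and 5.40 in P915H. The one at 10.8 kb (32249122 to 32249365) had 5.01, 4.68 and 4.74 in KO, 4.99, 5.08 and 5.02 in WT and 5.05, 5.28 and 5.28 in P915H. At both, every KO sample was below every P915H sample, and WT overlapped KO as well as P915H. The 10 strongest members had KO minus P915H differences from -0.41 to 0.23.

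KO differed from P915H at 12 Bach2 peaks by limma at an adjusted p under 0.05. Of these, 9 were lower in KO (15.5% of members), beside 8.97% of all peaks, and 3 were higher in KO (5.17% of members), beside 6.55% of all peaks. Because this contrast picked the gene, nothing is read from these shares. The median difference over the 58 peaks was -0.03, against -0.01 over all peaks, with single peaks from -1.72 to 0.79. The median peak thus lay near 0, while single sites differed by up to 3.30-fold.

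The largest KO minus P915H differences were at a pair of neighbouring peaks between the 5′ end and the internal start. The peak at 66.0 kb (32304293 to 32304508) had 2.22, 1.64 and 1.83 in KO, 2.97, 3.44 and 3.65 in WT and 3.69, 3.79 and 3.39 in P915H. Every KO sample was below every other sample, and WT and P915H overlapped. KO was lower than P915H by 3.30-fold (log2 difference -1.72, SE 0.23) and lower than WT by 2.75-fold (-1.46, SE 0.23). The peak at 65.4 kb, whose end is 346 bp away (32303678 to 32303947), had 1.21, 0.75 and 0.64 in KO, 1.01, 1.52 and 1.86 in WT and 2.15, 2.09 and 1.86 in P915H. Here WT overlapped KO and reached up to the lowest P915H value, and KO was 2.24-fold lower than P915H (-1.16, SE 0.31).

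Closer to the 5′ end, the peak at 29.8 kb (32268112 to 32268328) had 1.90, 1.00 and 1.18 in KO, 2.01, 2.44 and 2.48 in WT and 2.21, 2.68 and 2.46 in P915H, a KO minus P915H difference of -1.09 (SE 0.28). The KO samples were the 3 lowest, with KO replicate 1 just below WT replicate 1. The peak at 43.2 kb (32281431 to 32281736) had 1.52, 1.48 and 1.28 in KO, 1.99, 2.06 and 2.02 in WT and 2.30, 2.27 and 2.51 in P915H, a difference of -0.93 (SE 0.21). At this site the 3 genotypes formed separate ranges with WT in the middle. The peak 6.48 kb before the body (32231835 to 32232039), a strong site, had 4.38, 3.97 and 4.12 in KO, 4.30, 4.72 and 4.48 in WT and 4.74, 4.73 and 4.82 in P915H, a difference of -0.61 (SE 0.15). KO and WT overlapped there, and all P915H samples were above both.

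Farther along, the peak at 125.4 kb (32363738 to 32363941) had 2.85, 2.26 and 2.38 in KO, 3.11, 3.33 and 3.24 in WT and 3.07, 3.44 and 3.41 in P915H, a KO minus P915H difference of -0.81 (SE 0.20). All KO samples were below WT and P915H, which overlapped. This site is 4406 bp from the next member toward the 5′ end and close to the strongest peak of the gene, which did not show such a gap between genotypes. Past the internal start, the peak at 238.4 kb (32476630 to 32476942) had 1.79, 1.37 and 1.65 in KO, 2.36, 2.33 and 1.95 in WT and 2.24, 2.68 and 2.77 in P915H, a difference of -0.96 (SE 0.24). Again the KO samples were the lowest and the other two genotypes overlapped.

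A stretch just before the internal start held called peaks in both directions. The peak at 166.9 kb (32405216 to 32405424) was higher in KO, with 3.78, 3.78 and 3.57 in KO, 3.31, 3.45 and 3.45 in WT and 2.94, 2.80 and 3.03 in P915H, a difference of 0.79 (SE 0.15) or 1.72-fold. Its 3 genotypes did not overlap, with WT in the middle. The peak at 173.0 kb (32411164 to 32411566) ran the other way, with 1.38, 1.05 and 1.12 in KO, 1.48, 1.87 and 1.57 in WT and 2.20, 2.14 and 2.37 in P915H, a difference of -1.06 (SE 0.24). The peak at 175.1 kb (32413164 to 32413797), the last before the promoter window, had 2.37, 2.26 and 2.20 in KO, 2.77, 2.59 and 2.76 in WT and 2.83, 3.11 and 3.01 in P915H, a difference of -0.71 (SE 0.17). The 3 genotypes formed separate ranges at both of these sites too. A further 2 peaks lie between the first of these 3 sites and the other two, at 167.4 and 167.8 kb, and neither was called.

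The other 2 peaks that were higher in KO lay upstream. The peak 58.4 kb before the body (32179861 to 32180068) had 4.47, 4.60 and 4.75 in KO, 4.41, 4.28 and 4.22 in WT and 4.09, 4.08 and 3.99 in P915H, a difference of 0.55 (SE 0.13). The peak 20.7 kb before it (32217639 to 32217866) had 3.49, 3.84 and 3.68 in KO, 3.46, 3.09 and 3.08 in WT and 2.90, 2.92 and 3.09 in P915H, a difference of 0.70 (SE 0.17). KO lay above the other groups at both, narrowly at the second, where WT and P915H overlapped.

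**Figure D1:**
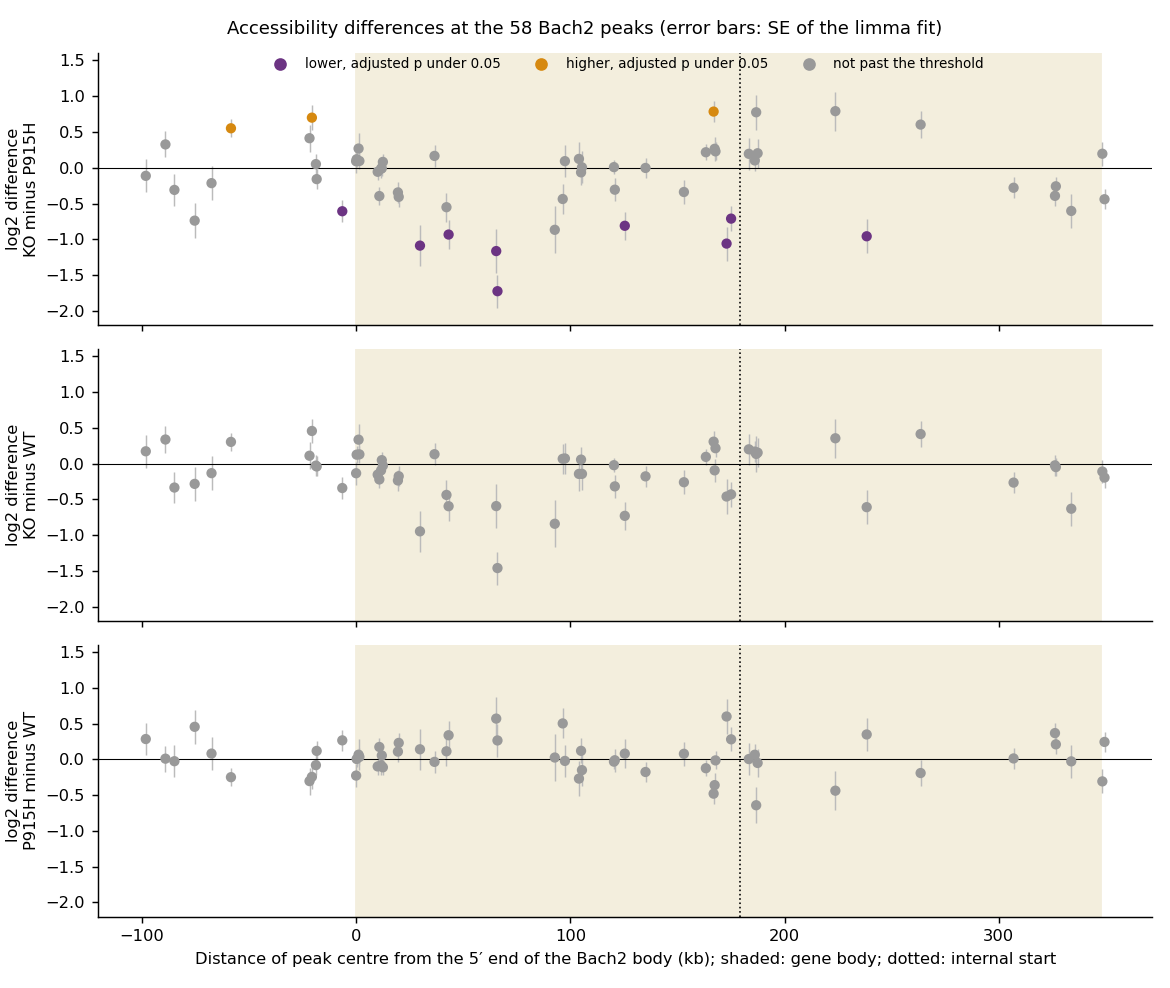
Log2 accessibility differences with the SE of the limma fit (y axis) at the 58 Bach2 peaks by distance from the 5′ end of the gene body in kb (x axis), for KO minus P915H, KO minus WT and P915H minus WT from top to bottom. In the top panel 9 peaks are lower and 3 higher in KO, 7 of the 9 in the body before the internal start, and no peak is called in the lower panels.

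By position, 7 of the 9 lower peaks were among the 34 in the body before the internal start, 1 was among the 11 upstream and 1 among the 11 in the body after that start. Of the 3 higher ones, 2 were upstream and 1 was before the internal start, and neither downstream peak was called. The median KO minus P915H difference was -0.03 before the internal start, 0.10 after it and -0.11 upstream. The lower sites were mostly weak. Their level over all samples had a median of 2.13, with the highest at 4.47, against 3.42 for the 46 uncalled members. The part that level had in which sites were called was not tested.

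**Figure D2:**
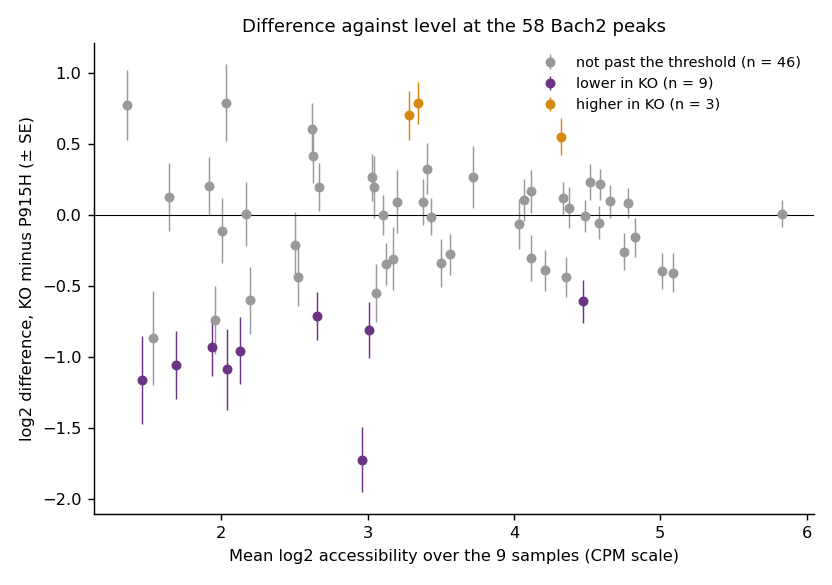
KO minus P915H log2 difference with its SE (y axis) against the mean log2 accessibility over the 9 samples (x axis) for the 58 Bach2 peaks. Of the 9 peaks lower in KO, 8 have levels of at most 3.01, and the strongest peak, at 5.83, has a difference of 0.01.

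At the edge of the threshold, the last 2 members called were the peaks at 29.8 and 65.4 kb. The first 2 not called were the peak at 263.6 kb, with a KO minus P915H difference of 0.60 (SE 0.19), and the one at 10.8 kb, with -0.39 (SE 0.13). All 46 uncalled members had differences from -0.87 to 0.79, so some were as far apart as called ones but with larger errors.

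The spread between samples was not even. Averaged over the 58 peaks, the level was 3.33, 3.17 and 3.18 in KO, 3.31, 3.38 and 3.37 in WT and 3.31, 3.41 and 3.41 in P915H. KO replicate 1 lay above replicate 1 of both other genotypes, while KO replicates 2 and 3 were the lowest of all. Over the 9 peaks lower in KO, chosen for that difference, the means were 2.18, 1.75 and 1.82 in KO, 2.44, 2.70 and 2.67 in WT and 2.83, 2.99 and 2.96 in P915H. Because the replicate effect was removed before deposit, a high KO value forces the values of the same number down in the other genotypes. Without KO replicate 1, 14 Bach2 peaks were lower in KO than in P915H. The count of lower peaks was 2 without KO replicate 2 and 1 without KO replicate 3, P915H replicate 2 or P915H replicate 3. Over all 61540 peaks, the lower ones numbered 5520 with every sample kept and 6820 without KO replicate 1. They fell to 2045 without KO replicate 2 and to 1746 without KO replicate 3. Without P915H replicate 1, 2 or 3 they numbered 3580, 1413 and 2290, in that order. The count of higher Bach2 peaks was 1 without KO replicate 2, KO replicate 3 or P915H replicate 1, and 0 without P915H replicate 2. Those of all peaks went from 4028 with every sample kept to 3518, 1772 and 1824 without KO replicate 1, 2 or 3. Without P915H replicate 1, 2 or 3 they numbered 2361, 1812 and 2441. The peak at 66.0 kb was called in all 9 fits that left out a sample, with differences from -1.96 to -1.53, and the peak at 166.9 kb in 8 of them, the exception being without P915H replicate 2 (limma adjusted p = 0.0536).

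**Figure D3:**
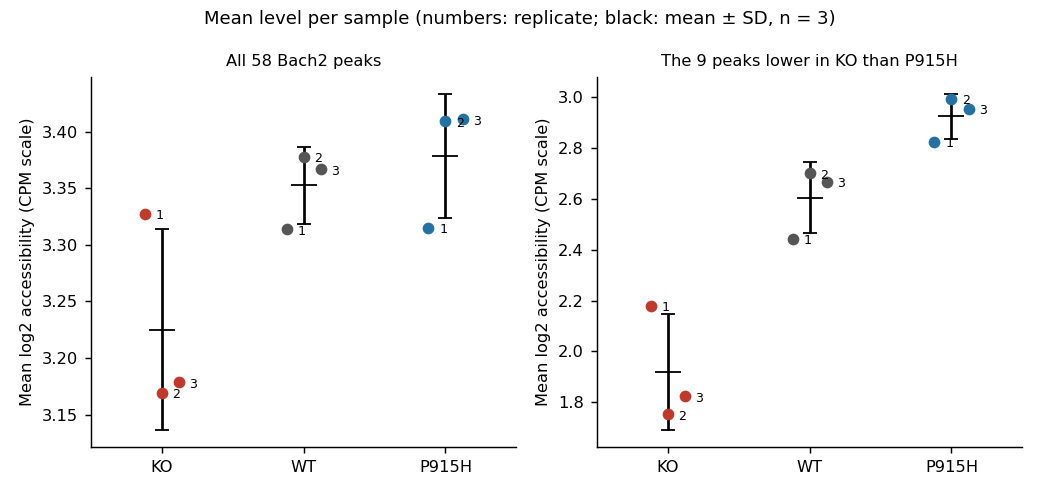
Mean log2 accessibility per sample (y axis) over all 58 Bach2 peaks (left) and over the 9 peaks lower in KO than in P915H (right), by genotype, with points numbered by replicate and the mean ± SD of 3 in black. KO replicate 1, at 3.33 on the left, lies within the range of WT and P915H, and on the right all 3 KO samples are below WT.

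Against WT, no Bach2 peak passed limma's threshold in KO, beside 0.0195% of all peaks. At an unadjusted p under 0.05, 9 peaks were lower in KO (15.5% of members), beside 11.5% of all peaks, and 2 were higher (3.45%), beside 7.2%. The smallest limma adjusted p, 0.0583, was that of the peak at 66.0 kb, and next came the peak at 125.4 kb, where KO was 1.66-fold lower than WT (log2 difference -0.73, SE 0.20, 0.0979). On the higher side the smallest unadjusted p values were at the upstream sites 20.7 and 58.4 kb before the body, with differences of 0.46 (SE 0.17) and 0.30 (SE 0.13). The median difference over the 58 peaks was -0.10, against 0.00 over all peaks. Without KO replicate 1, 3 Bach2 peaks were called in this comparison, at 29.8, 66.0 and 125.4 kb, all lower in KO. In that fit 2920 of all 61540 peaks were called lower in KO and 420 higher, against 9 and 3 with every sample kept.

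P915H against WT uses the same P915H samples as the contrast that picked the gene. No Bach2 peak passed limma's threshold, beside 0.255% of all peaks, and the smallest adjusted p was 0.375. At an unadjusted p under 0.05, 2 peaks were lower in P915H (3.45% of members), beside 5.09% of all peaks, and 3 were higher (5.17%), beside 2.63%. The 2 lower ones were the peak at 166.9 kb, by 1.39-fold (log2 difference -0.48, SE 0.15), and the peak at 186.8 kb (32425052 to 32425323). That peak had 1.72, 1.67 and 1.59 in KO, 1.53, 1.47 and 1.56 in WT and 0.81, 0.92 and 0.91 in P915H, so every P915H sample was below every other sample. Its P915H minus WT difference was -0.64 (SE 0.25, limma adjusted p = 0.554), which did not pass although these samples do not overlap. The SE is moderated toward that of other peaks of the same level. On the higher side were the peaks at 173.0 kb, by 1.51-fold (0.60, SE 0.24), at 96.5 kb, by 1.42-fold (0.50, SE 0.21), and at 326.3 kb within Bach2os (32564576 to 32564813). The last had 4.29, 4.01 and 3.91 in KO, 4.00, 4.11 and 4.17 in WT and 4.33, 4.51 and 4.55 in P915H, so P915H was above the others and KO and WT overlapped. The difference between the effects of KO and of P915H on WT is the KO minus P915H difference given above. The median P915H minus WT difference over the 58 peaks was 0.01, against 0.02 over all peaks.

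**Figure D4:**
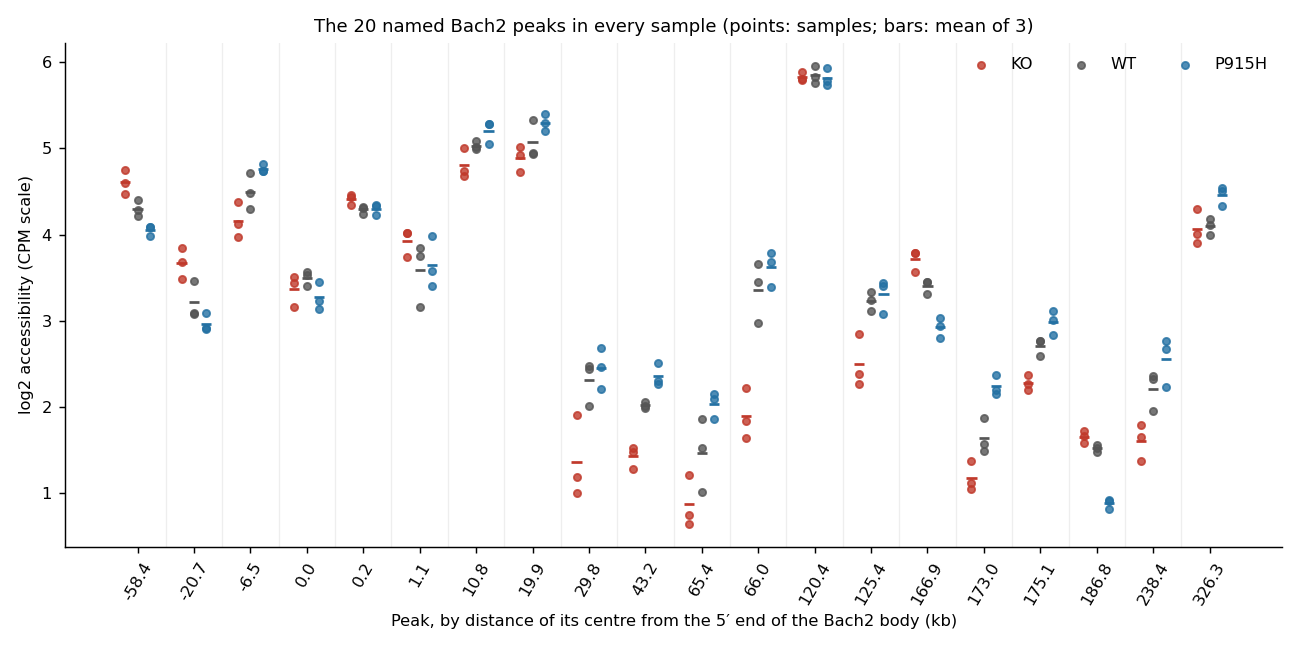
Log2 accessibility (y axis) of 20 Bach2 peaks, ordered by distance from the 5′ end of the gene body in kb (x axis), with each point a sample and each bar the mean of 3 for KO, WT and P915H. The genotypes coincide at 120.4 kb, KO is lowest at 66.0 kb, and P915H is lowest at 166.9 and 186.8 kb.

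The surrounding genes were examined to see whether the differences ran on past the Bach2 domain. The 14 protein-coding genes with a body within 1 Mb of Bach2 had 50 peaks. Of these, 4 were lower and 7 higher in KO than in P915H by limma, beside 8.97% lower and 6.55% higher of all peaks. On the upstream side the only such gene was Map3k7, which encodes the kinase TAK1 of Toll-like receptor and NF-kB signalling. It had 2 lower peaks of 8, and the stronger of them (31986963 to 31987167) had 5.66, 4.84 and 5.04 in KO, 5.52, 6.03 and 5.85 in WT and 5.90, 6.20 and 6.19 in P915H, with KO replicate 1 inside the WT range. On the downstream side the nearest genes, Gja10, Casp8ap2 and Mdn1, had no called peak among their 2, 1 and 2 peaks. The other 2 lower peaks were at Rragd and Rngtt. Of the 7 higher peaks, 2 were at the GABA receptor gene Gabrr1 and 5 at Rngtt, the mRNA capping enzyme gene. At these 7 peaks the KO minus WT differences ran from 0.27 to 1.08 and the P915H minus WT differences from -2.48 to -0.65. Against WT, no peak of these genes was called in KO and 1 was in P915H, a lower peak at Rngtt. The shares of all peaks called there were 0.0195% and 0.255%.

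For the genes around Bach2 in its pathway, 4 lists were used, each as all peaks of its genes, and KO against P915H is the contrast described. The shares to set beside theirs are the 8.97% of all peaks that were lower and the 6.55% that were higher in KO, with a median of -0.01. Partners and corepressors of Bach2 had 4 lower and 1 higher of 45 peaks (8.89% and 2.22%), with a median of -0.11. The lower share is close to that of all peaks. No peak of the small Maf genes Mafk, Mafg and Maff was called. Bcl6, the germinal centre repressor, had 2 lower of 11, Bach1, the paralogue of Bach2, had 2 of 9, and the higher peak was 1 of 5 at the corepressor gene Ncor1. A peak assigned to Bcl6 from 87708 bp away (chromosome 16, 24076574 to 24076780) had mean levels of 2.64 ± 0.22 (SD, n = 3) for KO, 3.58 ± 0.16 for WT and 3.81 ± 0.24 for P915H. The KO minus P915H difference there was -1.17 (SE 0.19). The lower peaks of this list numbered 7 without KO replicate 1, 2 without KO replicate 2 or WT replicate 2, and 1 without KO replicate 3, any P915H sample or WT replicate 1. The higher one was not called when any KO sample, P915H replicate 1 or P915H replicate 3 was left out.

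Regulators upstream of Bach2 had 14 lower and 6 higher of 89 peaks (15.7% and 6.74%), with a median of -0.08. Foxo1, a factor of resting B cells that PI3K signalling inhibits, had 6 lower of 29, and Pax5, the B cell identity factor, had 5 lower and 2 higher of 26. Irf4, which promotes plasma cell differentiation, had 4 higher of 15 and none lower. Its peak 12158 bp outside the body (chromosome 13, 30736653 to 30737075) had mean levels of 4.28 ± 0.13 (SD, n = 3) for KO, 3.69 ± 0.16 for WT and 3.46 ± 0.04 for P915H. A Foxo1 peak 46215 bp outside its body ran the other way, with a difference of -0.81 (SE 0.14). The lower peaks of this list numbered 8 without KO replicate 2 and 6 without KO replicate 3. They numbered 4 without P915H replicate 2 and 9 without P915H replicate 3. The higher ones fell to 2 without KO replicate 2, P915H replicate 2 or P915H replicate 3. Without KO replicate 3 or P915H replicate 1 they numbered 3. With each sample left out in turn, the lower peaks ranged from 4 to 16 and the higher ones from 2 to 6. For every list, counts over all peaks in the fits without a KO or P915H sample are those given above.

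Genes that Bach2 is known to repress had 6 lower and 6 higher of 57 peaks (10.5% each, beside 8.97% lower and 6.55% higher of all peaks), with a median of -0.08. Prdm1, the target most tied to plasma cell differentiation, had 1 lower and 1 higher of 22. Cdkn2a, a cell cycle inhibitor gene, had 3 higher of 4, one of which (89282159 to 89282376) had mean levels of 4.13 ± 0.18 (SD, n = 3) for KO, 3.52 ± 0.31 for WT and 2.78 ± 0.13 for P915H. Cebpb, a myeloid factor gene, had 3 lower and 1 higher of 20, and one of them 5434 bp from its body differed by -1.38 (SE 0.20). The AP-1 and Batf genes, whose proteins bind sites like those of Bach2, had 7 lower and 7 higher of 91 peaks (7.69% each, near the shares of all peaks), with a median of -0.05. Among them Batf3 had 6 higher of 12, with differences of 1.61 (SE 0.18) and 0.83 (SE 0.15) at the peaks 15450 and 2405 bp from its body, and Fos had 3 lower of 23. Leaving out each KO or P915H sample in turn gave 4 to 10 lower and 1 to 3 higher peaks of repressed genes, with 10 lower without KO replicate 1, 4 without KO replicate 2, KO replicate 3 or P915H replicate 2, and 1 higher without P915H replicate 2 or P915H replicate 3. For the AP-1 and Batf genes there were 0 lower peaks without P915H replicate 2 or P915H replicate 3, and 1 without KO replicate 3. There were 2 without KO replicate 2 and 4 without P915H replicate 1. The higher ones numbered 2 without KO replicate 2, P915H replicate 1 or P915H replicate 2, and 3 without KO replicate 3. With each sample left out in turn, the lower peaks of these genes ranged from 0 to 10 and the higher ones from 2 to 8. In KO against WT and in P915H against WT no peak of these 4 lists was called.

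**Figure D5:**
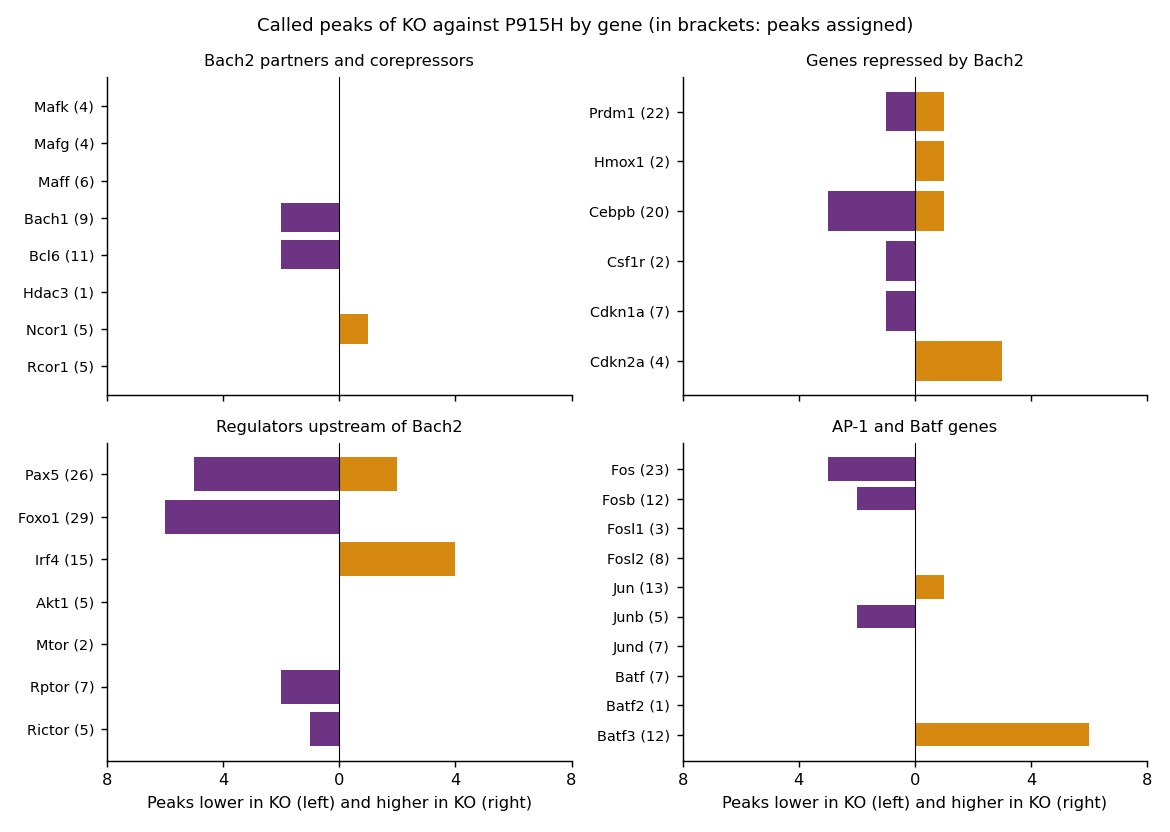
Number of peaks called lower (left, purple) and higher (right, orange) in KO than in P915H (x axis) for each gene of the 4 lists (y axis, peaks assigned to the gene in brackets). Foxo1 has 6 lower peaks, and Batf3 has 6 higher ones.

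The labelled cell type was checked by peaks at marker genes. All 7 B cell genes, including Cd79a and Ms4a1, and all 8 genes of the age-associated B cell list, including Tbx21 with 14 peaks and Itgax with 8, had peaks. Cd4 and Cd8a had none, nor had the NK cell genes Ncr1 and Gzma, the myeloid genes Lyz2, S100a8, S100a9, Elane, Mpo and Cd209a, or the erythroid genes Hba-a1, Hbb-bs and Gata1. T cells also use Bach2. Of 10 T cell genes 8 had peaks, and the CPM summed over the T cell peaks was 565 to 624 in KO, 559 to 624 in WT and 591 to 610 in P915H, with overlap between the groups. Of the 37 T cell peaks, 2 were lower and 6 higher in KO than in P915H (5.41% and 16.2%, beside 8.97% and 6.55% of all peaks), 4 of the higher ones at Tcf7 and 1 each at Cd3g and Cd3e. The called Cd3g peak had mean levels of 2.20 ± 0.20 (SD, n = 3) for KO, 1.28 ± 0.16 for WT and 0.15 ± 0.19 for P915H, and the called Cd3e peak 1.99 ± 0.08, 1.24 ± 0.10 and 0.11 ± 0.06, so the genotypes did not overlap at either. Over plasma cell genes it was 648 to 667 in KO, 603 to 628 in WT and 582 to 616 in P915H, so KO lay above the others. For that list 1 peak was lower and 7 were higher in KO than in P915H, of 60 (1.67% and 11.7%). Irf4, also in the list of upstream regulators, had 4 of the higher ones. Over B cell genes the sum was 1506 to 1624 in KO, 1636 to 1699 in WT and 1643 to 1744 in P915H, so KO lay below. Of the 113 peaks, 14 were lower and 6 higher (12.4% and 5.31%). Ebf1 had 7 lower and 2 higher of 52, and Pax5, also among the upstream regulators, 5 lower and 2 higher of 26. Cd79a and Ms4a1 each had 1 lower peak, Cd22 and Blnk each had 1 higher peak, and Cd79b had none called. Over age-associated B cell genes the sum was 1104 to 1171 in KO, 1106 to 1149 in WT and 1041 to 1096 in P915H, so P915H lay below. Of their 115 peaks, 10 were lower and 14 higher (8.70% and 12.2%). The lowest sums were also in KO samples over macrophage (205 to 234, against 232 to 265), dendritic cell (391.99 to 409, against 405 to 446) and NK cell genes (270 to 273, against 273 to 290.1), and in the macrophage and dendritic lists KO overlapped WT. Peaks lower and higher in KO than in P915H numbered 2 and 3 of 15 for macrophages, 5 and 3 of 39 for dendritic cells and 2 and 1 of 20 for NK cells. Neutrophil and erythroid genes had only 4 and 5 peaks, whose summed CPM was 55.4 or less in every sample. Sums over lists with unlike numbers of peaks are not comparable with each other. What part cells nearer to plasma cells, or other cell types, had in the Bach2 values was not tested. None of the 3 peaks assigned to Tlr9 passed limma's threshold in any comparison (smallest adjusted p = 0.220), and the labels do not say which part of the gene is deleted.

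Genes with a similar profile were sought by the mean log2 level of all their peaks in each sample. Among 263 other genes with at least 20 peaks, the highest Pearson correlations with Bach2 over the 9 samples were those of Ubac2 (0.995), Btg1 (0.995), Med12l (0.993), Cytip (0.992) and Ado (0.982). The median over these genes was 0.76, so a high value is common. The reason for this was not tested. The range between samples was 0.24 for Bach2 and 0.25 for Ubac2, and from 0.33 to 0.56 for the other four. Btg1, an antiproliferative gene of resting lymphocytes, had 4 lower and 1 higher of 21 peaks in KO against P915H, and Ubac2 had 8 lower and 1 higher of 50.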

How the data were processed

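The authors deposited log2 values for 61540 peaks in 9 samples, with peak positions on mm10. Per the submitters' processing notes, limma, MACS2, Picard 2.18.12, SAMtools, Bowtie2 2.3.3 and Trim Galore 0.6.5 were used, in roles not stated. The normalization, and the samples on which peaks were called, are not given in the sources used here. Sample totals of the antilogs run from 0.987 to 1.01 of the nominal CPM total. At each peak the mean over genotypes is equal for replicate numbers 1, 2 and 3, so a replicate effect had been removed. Same-numbered samples therefore deviate against each other by construction, and pairing could not be checked.

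All 9 samples entered 1 limma 3.58.1 fit (R 4.3.3) with genotype, replicate number and an intensity trend, leaving 4 residual degrees of freedom, with two-sided p-values adjusted over the whole table by Benjamini-Hochberg. SE is that of the fit. The fit was tested on simulated data. No peak was filtered and no pseudocount was added.

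Genes came from the RefSeq table of GRCm38.p6, and motifs were searched in its promoter windows. Members, lists and rules were chosen with earlier results of these data known. Some list genes are not reported here and were left out of the list counts. Named peaks are those called in any comparison, within 1 kb of an annotated start, the 3 strongest, and the 2 with the smallest p per direction and comparison. Alternatives changed the replicate term, normalization, filter, weights, trend, samples, threshold and assignment. Tables used pandas 2.3.3 and NumPy 2.4.6 in Python 3.11.15, and plots matplotlib 3.10.9.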

Additional observations from a re-analysis of the deposited data

How the results depend on the processing

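Counts of called Bach2 peaks depended on the settings more than the differences did. In KO against P915H the 9 lower and 3 higher peaks became 18 and 7 with no replicate block. Over all peaks, that fit called 9626 lower and 7443 higher, where the main fit called 5520 and 4028. The Bach2 counts were 15 and 6 at an adjusted p under 0.1, and 1 and 1 at 0.01. Counts over all peaks at these thresholds are not given here. The higher Bach2 peaks numbered 1 when only peaks in the gene body, or peaks nearest to Bach2 among all RefSeq genes, were used. When each sample was left out in turn, the lower Bach2 peaks ranged from 1 to 14 and the higher ones from 0 to 3. Over all peaks the lower ones then ranged from 1413 to 6820 and the higher ones from 1772 to 4653. In KO against WT the count of 0 became 5 with no replicate block and 2 at an adjusted p under 0.1. It was 1 with sample weights, median centring or quantile normalization, and ranged from 0 to 3 with a sample left out. Over all peaks, 9 were lower and 3 higher in KO in the main fit, and 4321 and 2525 with no replicate block. They numbered 1194 and 342 with sample weights, 486 and 157 with median centring, and 499 and 206 with quantile normalization. The cause was not tested, except that the fit without the block counts 6 residual degrees of freedom where the values hold 4. In P915H against WT the count was 0 under every alternative run. All 12 calls of KO against P915H were kept with no replicate block, median centring, the filter on low values, sample weights and only the 6 samples compared, and 11 with quantile normalization or without the trend. No named peak reversed its direction where it was called. Unknown depth limits what weak sites can show.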
